A study of Mus musculus with 4 samples.

Results

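The genes described here are 7 receptors of the signalling lymphocytic activation molecule (SLAM) family (Cd244a, Cd48, Cd84, Ly9, Slamf1, Slamf6 and Slamf7) and 3 small adaptors that bind their tails (Sh2d1a, Sh2d1b1 and Sh2d1b2). They were listed by name, not by any measured value, and matched through RefSeq symbols to NCBI Gene numbers. All 10 were found among the 17723 genes above 0 in any library. The RNA came from splenic natural killer (NK) cells of C57BL/6J mice of 6 to 8 weeks, sorted as DNAM-1+ or DNAM-1- and taken from normal spleen (day 0) or on day 17 from spleen with acute myeloid leukaemia (AML). AML was given by transplanting GFP-marked MLL-AF9 leukaemia cells into mice that were not irradiated. Each of the 4 groups is 1 library, the labels do not say how many mice it holds or which other gates were set, and the p-values below come from a fit across all 4 libraries that has no replicate of any group.

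SLAM receptors are immunoglobulin-like proteins of blood cells. Most of them bind another copy of themselves on a neighbouring cell, while Cd244a (the receptor 2B4) binds Cd48. Their tails carry a tyrosine motif, the immunoreceptor tyrosine-based switch motif (ITSM), to which the adaptors SAP (Sh2d1a), EAT-2 (Sh2d1b1) and ERT (Sh2d1b2) dock through an SH2 domain. In NK cells these adaptors are known to turn the receptors toward activation, and without them the same receptors can recruit inhibitory phosphatases.

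The sort gene Cd226, which encodes DNAM-1, was at 38.6 against 0.45 FPKM (fragments per kilobase of transcript, scaled to library depth) in normal spleen and 36.1 against 0.58 in AML spleen, DNAM-1+ against DNAM-1- cells. Ncr1, the gene of the NK receptor NKp46, was at 573 and 383 FPKM in normal and 597 and 423 in AML spleen, higher in both DNAM-1+ libraries (mean log2 difference 0.54, SE 0.06, limma adjusted p = 0.00215). The libraries differed little in depth (an estimated 8.7M to 9.0M fragments, M for mega). Markers of other cells moved with the sort, and these values stand beside every subset difference below. The summed level of 16 B cell markers was 367 FPKM with DNAM-1 and 1469 without it in normal spleen, and 392 and 1394 in AML spleen. The sum of 15 monocyte and macrophage markers was 382 and 902, then 452 and 918. Of the 13 of them tested, 11 fell in DNAM-1+ cells and 1 rose. Some that fell, such as Adgre1 (1.16 and 8.17, then 1.75 and 8.94), reached the 5 FPKM needed for testing only in DNAM-1- cells. Such calls are partly set by the filter. Lyz2, which fell, was at 29.3 and 239, then 41.9 and 254 FPKM. Ccr2, which rose, was at 122 and 98.35, then 113 and 86.6. Ly6c2, the highest of this list, was at 137 and 159, then 188 and 192, and did not pass. The sum of 7 plasma cell markers was 73.3 and 210.7, then 79.4 and 319, and of 10 neutrophil markers 135.9 and 208, then 104 and 174. In the other direction, 12 T cell markers summed to 88.1 and 36.9, then 82.9 and 31.9, and 6 markers of type 1 innate lymphoid cells to 62.3 and 7.30, then 64.8 and 8.02. Within the T cell list the CD3 genes were higher in DNAM-1+ cells, and the coreceptors varied. Cd3g was at 32.4 and 9.87, then 32.4 and 9.66 FPKM. Cd8b1 was at 2.28 and 5.32, then 0.67 and 2.11. Cd8a was at 3.70 and 2.17, then 2.88 and 2.92, and Cd4 at 1.29 and 1.30, then 1.38 and 0.75. Of the 6 T cell markers tested 5 rose (Cd3d, Cd3e, Cd3g, Cd28 and Trat1), and Cd8b1 did not pass. Cd3e (9.22 and 1.74, then 8.95 and 1.25) and Trat1 (5.93 and 1.03, then 6.17 and 0.85) reached 5 FPKM only in DNAM-1+ cells. Their calls too are partly set by the filter. The 16 NK markers summed to 10647 and 9349 FPKM in normal spleen and 11187 and 10543 in AML spleen, and 5 of them rose while 0 fell. The sum of 8 dendritic cell markers was 231 to 254, and Itgax, at 224 to 243 FPKM, made up most of it. Of the 2 dendritic cell markers tested, Itgax did not pass and Cd209a fell in DNAM-1+ cells (1.03 and 3.90, then 3.88 and 10.29). Cd209a reached 5 FPKM only in DNAM-1- cells of AML spleen. The 7 erythroid, 6 platelet and 6 stem cell or leukaemia markers reached sums of at most 27.8. No B cell, T cell, monocyte or neutrophil marker of these lists was at 0 in any library, and Tnfrsf17 of the plasma cell list was at 0 in DNAM-1+ cells of normal spleen. In bulk RNA, fewer cells of a type and less RNA per cell cannot be told apart.

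All 10 genes were above 0 in every library, and their order was nearly the same in each. Cd48, the membrane-anchored ligand of Cd244a, was the highest at 185 to 209 FPKM. It was followed by Ly9 (99.5 to 134) and Cd244a (79.2 to 94.3), and the ranges of these 3 genes did not overlap. Cd84 (59.6 to 71.4) and Slamf7 (53.0 to 71.4) overlapped and changed places between libraries. Slamf7 also met the range of Sh2d1a (38.9 to 56.2). Sh2d1b1 (24.2 to 29.7) and Slamf6 (8.84 to 12.4) came next, each apart from its neighbours. Slamf1 (0.60 to 3.76) and Sh2d1b2 (0.72 to 1.93) were under 5 FPKM in all 4 libraries, so they were not tested. The median listed gene of a library was at 6.17 to 6.61 FPKM.

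**Figure D1:**
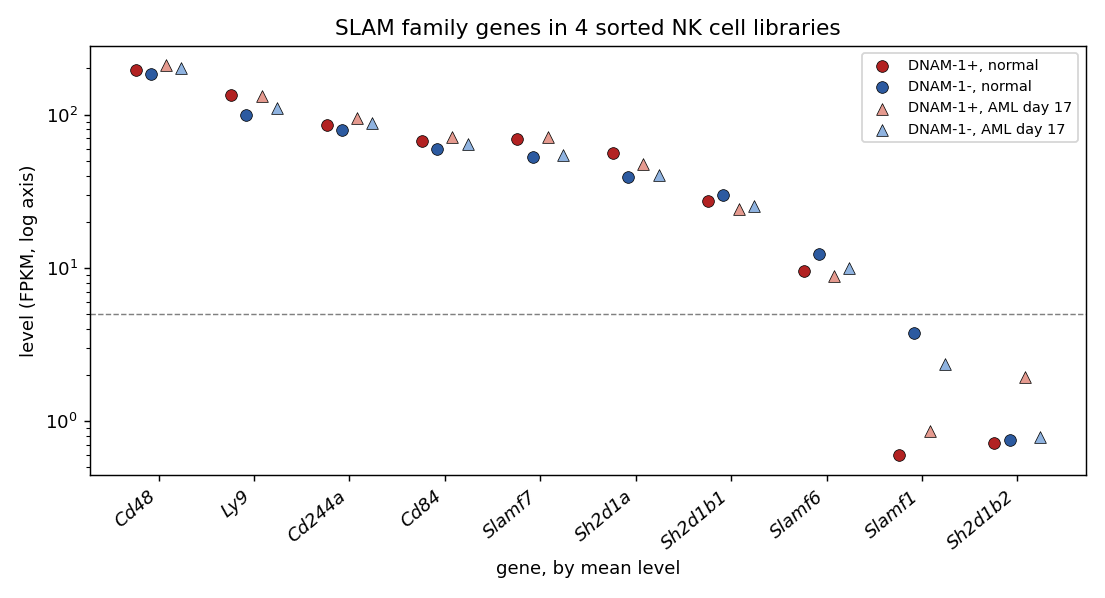
Level in FPKM (log axis) of the 10 genes in the 4 libraries, ordered by mean level, with 1 point a library (red DNAM-1+, blue DNAM-1-, circles normal spleen, triangles AML spleen) and the 5 FPKM floor dashed. Cd48 at 185 to 209 FPKM is highest and Slamf1 and Sh2d1b2 lie below the floor in every library.

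The receptor genes other than Cd48 end in the tails to which the adaptors bind. In proteins translated from GENCODE M21 coding sequences, the ITSM pattern (threonine, any residue, tyrosine, any pair of residues, then valine or isoleucine) was found 4 times in Cd244a, 2 times each in Ly9, Cd84, Slamf6 and Slamf1, and 1 time in Slamf7. Among 21534 genes, 7.95% held at least 1 match and 0.608% at least 2. Cd48 also held 1 match. Cd48 is known to be anchored by a lipid and to have no tail in the cell, so a match alone does not show a docking site. Matches were counted over the whole protein, and whether each lies in the tail was not checked. The 7 receptor genes lie in 1 cluster on chromosome 1, in the RefSeq order Cd244a, Ly9, Slamf7, Cd48, Slamf1, Cd84 and Slamf6, with 1 other RefSeq entry between them (Tma7-ps) that no library listed. Their RNA levels within the cluster ranged from 0.60 to 196 FPKM in DNAM-1+ cells of normal spleen.

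In DNAM-1+ cells, 3 of the 8 tested genes rose relative to DNAM-1- cells: the receptors Slamf7 and Ly9 and the adaptor Sh2d1a. None fell. Over all 9074 genes tested, 7.35% rose and 8.38% fell (limma over both spleens, Benjamini-Hochberg adjusted p below 0.05). The rises were small, about 1.2 to 1.4-fold in either spleen. Of the 16 NK markers, 5 rose, by 0.31 (Il2rb) to 1.27 (Cd7) on the same log2 scale. The others did not pass, and some were lower in DNAM-1+ cells, such as Gzmb (-0.20, SE 0.07). By direction alone, 12 of the 16 were higher in DNAM-1+ cells in normal spleen and 8 in AML spleen. The part of NK cell content in the member rises was not tested. The other 5 tested members (Cd244a, Cd48, Cd84, Slamf6 and Sh2d1b1) did not pass. All 3 calls were lost when the spread was not tied to expression level, and also when every listed gene was tested, with the adjusted p-values given beside each gene.

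Slamf7 encodes CRACC, a self-binding receptor that in NK cells is known to work through EAT-2. Its normal-spleen level was 69.4 FPKM with DNAM-1 and 53.0 without, and its AML-spleen level 71.4 and 54.8. Both DNAM-1+ libraries were above both DNAM-1- libraries, and the groups did not overlap. How many of all genes separate in this way was not counted, here and for the genes below. The ratio was 1.31 for normal and 1.30 for AML cells, and the mean log2 difference was 0.38 (SE 0.06, limma adjusted p = 0.00972). The adjusted p was 0.0508 without the trend and 0.121 with all listed genes.

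Ly9 encodes CD229, a large SLAM receptor found on T, B and NK cells. Its level was 134 FPKM in the DNAM-1+ and 99.5 in the DNAM-1- library of normal spleen, against 132 and 110.6 in AML spleen. The DNAM-1+ libraries were again the higher in both spleens, without overlap. The ratio was 1.35 for normal and 1.20 for AML cells, with a mean log2 difference of 0.34 (SE 0.07, limma adjusted p = 0.0204). It was 0.0891 without the trend and 0.175 with all listed genes. B cells, whose markers were lower in DNAM-1+ cells, are also known to express Ly9, and their part in its value was not tested.

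Cd244a encodes 2B4, the SLAM receptor best known from NK cells, and Cd48 its ligand, which NK cells carry as well. Cd244a was at 86.1 and 79.2 FPKM (DNAM-1+ and DNAM-1-) in the normal and 94.3 and 87.8 in the AML spleen. Cd48 was at 196 and 185, and at 209 and 200.2. Each gene was slightly higher in the DNAM-1+ library of a spleen, but its DNAM-1+ and DNAM-1- levels overlapped across spleens. The mean log2 differences were 0.11 for Cd244a (SE 0.06, limma adjusted p = 0.281) and 0.07 for Cd48 (SE 0.06, adjusted p = 0.456). The ratio of Cd48 to Cd244a stayed between 2.22 and 2.33 in the 4 libraries.

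Cd84, a self-binding receptor also found on B cells, myeloid cells and platelets, was at 67.3 and 59.6 FPKM in normal and at 71.4 and 64.0 in AML spleen. It was higher in both DNAM-1+ libraries, and the mean log2 difference of 0.16 (SE 0.06, limma adjusted p = 0.130) did not pass, although the subsets did not overlap. Slamf6, the receptor Ly108 or NTB-A, was at 9.57 against 12.4 and at 8.84 against 9.92 FPKM. Both DNAM-1+ libraries were below both DNAM-1- libraries. Its mean log2 difference of -0.24 (SE 0.09, adjusted p = 0.132) did not pass either. The ratio of Ly9 to Slamf6 was 14.0 and 8.05 in normal spleen and 15.0 and 11.1 in AML spleen, DNAM-1+ cells given before DNAM-1- cells.

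**Figure D2:**
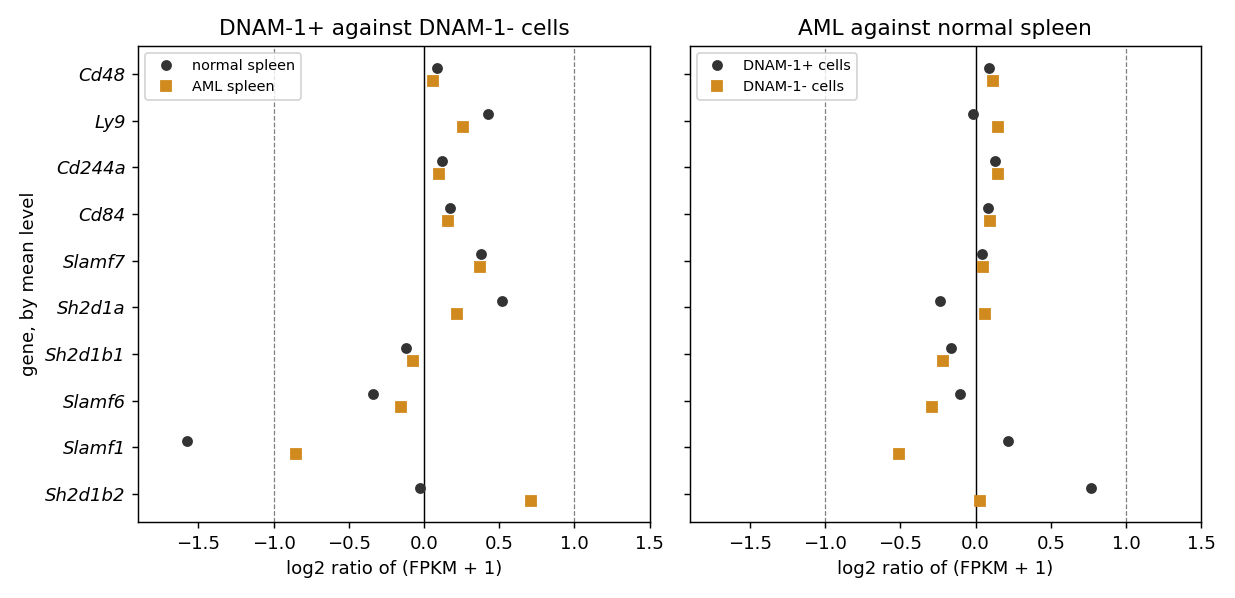
Log2 ratio of FPKM + 1 for the 10 genes between DNAM-1+ and DNAM-1- cells (left, 1 point a spleen) and between AML and normal spleen (right, 1 point a subset), with dashed lines at 2-fold. Slamf1 lies at -1.57 and -0.85 on the left, and no gene at 5 FPKM or more reaches a dashed line.

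Slamf1 encodes CD150, known from blood stem cells, macrophages and activated T and B cells. Its level was 0.60 FPKM with DNAM-1 and 3.76 without in the normal spleen, then 0.86 and 2.35 in the AML spleen. Both DNAM-1+ libraries were below both DNAM-1- libraries. Exact 95% Poisson intervals, from an estimated 14, 87, 20 and 55 fragments, were 0.33 to 1.00, 3.01 to 4.64, 0.53 to 1.32 and 1.77 to 3.06 FPKM, and cover counting error only. The log2 ratio was -1.57 for normal and -0.85 for AML cells, the widest of the 10 genes. With a floor of 1 FPKM Slamf1 enters the test, but only through the DNAM-1- libraries, where it is the higher. It fell in that fit (mean log2 difference -1.21, SE 0.23, limma adjusted p = 0.0411). This call is partly set by the filter and is not read as support. In the same fit Sh2d1a was no longer called (adjusted p = 0.0725). With every listed gene tested, Slamf1 was not called.

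The relatives Slamf8 and Slamf9, whose short tails lack the ITSM, had the same direction as Slamf1 at similar levels. Slamf8 was at 1.08 and 3.91 FPKM in normal and 1.89 and 3.91 in AML spleen, and Slamf9, at 0.57 and 4.17, and 1.26 and 3.73. All 3 genes were lowest in the DNAM-1+ cells, as were the summed B cell and monocyte markers. Whether these cells gave the Slamf1, Slamf8 and Slamf9 RNA was not tested. Cd2, a related receptor that binds Cd48 in mice, was at 474 and 395 FPKM in normal and 410 and 369.7 in AML spleen. It was higher in each DNAM-1+ library, and did not pass (mean log2 difference 0.21, SE 0.06, limma adjusted p = 0.0752).

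**Figure D3:**
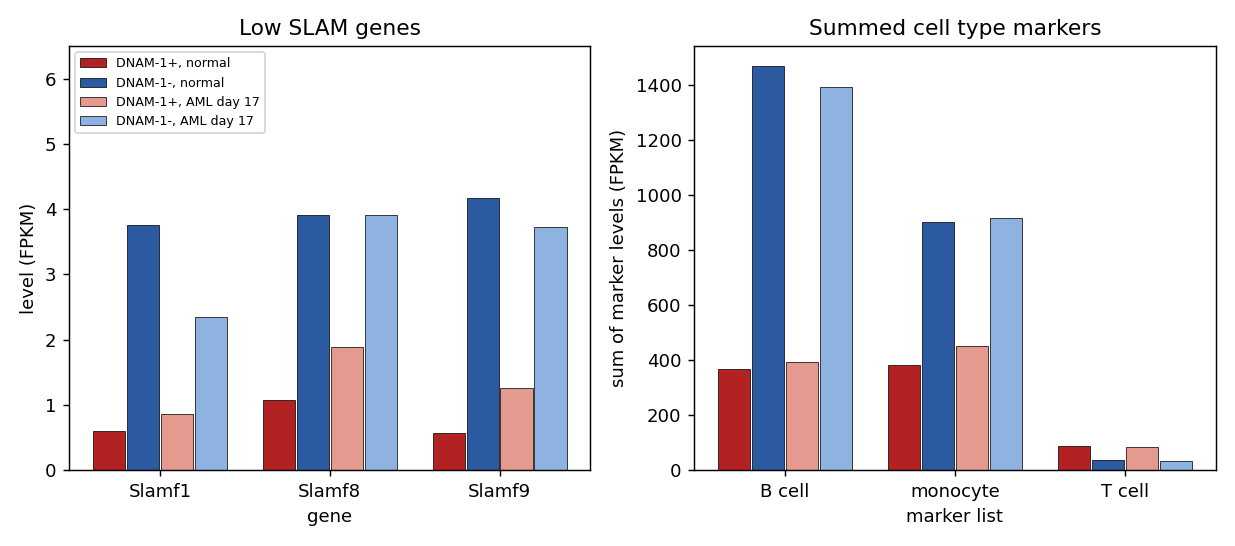
Left, level in FPKM of the low genes Slamf1, Slamf8 and Slamf9 in each library. Right, summed FPKM of the B cell, monocyte and T cell marker lists in the same libraries, where the B cell sum is 367 and 392 in DNAM-1+ against 1469 and 1394 in DNAM-1- cells.

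Sh2d1a encodes SAP, the adaptor that brings the kinase Fyn to SLAM receptors and whose loss causes X-linked lymphoproliferative disease in humans. Its level was 56.2 FPKM with DNAM-1 and 38.9 without in normal spleen, then 47.5 and 40.6 in AML spleen. The DNAM-1+ library was the higher in both spleens, without overlap, but by 1.44-fold in normal and 1.17-fold in AML spleen. The mean log2 difference was 0.37 (SE 0.09, limma adjusted p = 0.0356). Without the trend the adjusted p was 0.119, and with all listed genes 0.245. T cells are known to express Sh2d1a. Of the 6 T cell markers tested, 5 rose in DNAM-1+ cells, of which Cd3e and Trat1 passed the floor only through those cells. Cd8b1 was lower and did not pass, and Cd4 and Cd8a were below the floor. The part of T cells in the Sh2d1a value was not tested.

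Sh2d1b1 encodes EAT-2, the adaptor typical of NK and myeloid cells. It was at 27.2 and 29.7 FPKM in normal spleen and 24.2 and 25.4 in AML spleen, DNAM-1+ before DNAM-1- cells. DNAM-1+ libraries were the lower by less than the range between spleens (mean log2 difference -0.10, SE 0.07, limma adjusted p = 0.383). The ratio of Sh2d1a to Sh2d1b1 was 2.06 with DNAM-1 and 1.31 without in normal spleen, and 1.96 and 1.60 in AML spleen. On the FPKM scale SAP RNA was above EAT-2 RNA in all 4 libraries, with the larger ratio in the DNAM-1+ cells of each spleen.

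Sh2d1b2 encodes ERT, the rodent neighbour and close copy of EAT-2. The translated proteins of Sh2d1b1 and Sh2d1b2 are both 132 residues long and 83.3% identical, against 33.8% and 37.3% identity with the 126 residues of SAP. Of the 50-base stretches of the Sh2d1b2 transcript, 13.4% also occur in Sh2d1b1, so reads can be shared and the Sh2d1b2 value is uncertain. Sh2d1b2 was at 0.72, 0.75 and 0.79 FPKM in DNAM-1+ normal, DNAM-1- normal and DNAM-1- AML cells and at 1.93 in DNAM-1+ AML cells. The last library stood above the other 3. Its 95% Poisson interval was 1.40 to 2.60 FPKM, from an estimated 43 fragments, and the highest bound of the others was 1.26. These intervals too cover counting error only, not the spread between samples, and the difference between libraries was not tested. The RNA of the copy was at most 1.93 FPKM beside at least 24.2 FPKM of Sh2d1b1.

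The promoters of this pair are shown because the genes are near copies with such different RNA levels. Both are the 250 bases before the RefSeq start (GRCm38.p6), on the plus strand, at chr1:170277068-170277317 for Sh2d1b1 and chr1:170232621-170232870 for Sh2d1b2. Capitals mark TGAGTCA on either strand, the letters known to bind AP-1 (Fos and Jun proteins), a motif chosen after these sequences had been read.
Sh2d1b1: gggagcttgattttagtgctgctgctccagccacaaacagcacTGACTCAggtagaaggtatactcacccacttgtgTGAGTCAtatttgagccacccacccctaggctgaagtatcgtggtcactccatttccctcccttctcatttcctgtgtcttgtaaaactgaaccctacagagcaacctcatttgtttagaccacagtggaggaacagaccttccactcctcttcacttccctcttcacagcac
Sh2d1b2: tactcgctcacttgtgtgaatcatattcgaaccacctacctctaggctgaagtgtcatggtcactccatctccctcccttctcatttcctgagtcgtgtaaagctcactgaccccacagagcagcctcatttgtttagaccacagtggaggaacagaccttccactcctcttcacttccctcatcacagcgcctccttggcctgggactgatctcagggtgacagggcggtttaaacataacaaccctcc

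Over the 192 columns of their alignment the 2 promoters were 89.1% identical. Sh2d1b1 held the motif 2 times, starting 207 and 173 bases before the start, and Sh2d1b2 did not hold these letters in this window. The 2 windows are offset, and the motif at 207 lies outside the aligned columns. Its counterpart in Sh2d1b2 was therefore not seen. At the motif at 173 the matching Sh2d1b2 letters are tgaatca. Among 32851 promoters of the same length, 4.46% held it. Of the 8 members with a promoter in the table, 4 did: Sh2d1b1, Cd244a, Slamf7 and Cd84. Because the motif was picked from sequences of the members, this count is a description and is not read against that share. Cd48, Slamf1, Slamf6 and Sh2d1b2 did not hold the motif, and a relation of the motif to RNA level was not tested. Ly9 and Sh2d1a were not in the table. The receptor matches are shown with 16 bases on either side, at chr1:171559055-171559093 (plus strand) for Cd244a, chr1:171649019-171649057 (minus strand) for Slamf7 and chr1:171839452-171839490 (plus strand) for Cd84, 122, 42 and 229 bases before the start.
Cd244a: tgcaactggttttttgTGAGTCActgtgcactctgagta
Slamf7: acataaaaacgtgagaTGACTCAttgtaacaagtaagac
Cd84: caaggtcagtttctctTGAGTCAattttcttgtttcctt

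The 10 genes were also compared between the subsets as a group. Their median log2 ratio, DNAM-1+ against DNAM-1-, was 0.10 in normal spleen (6 higher, 4 lower) and 0.13 in AML spleen (7 higher, 3 lower), beside 0.01 over all 9074 genes in either spleen. Where the higher library reached 5 FPKM, 0 of 8 members were at least 2-fold apart in either spleen, where 5.25% of all genes were in normal and 4.08% in AML spleen. The widest of these 8 was Sh2d1a in normal spleen at 0.52. With shares this low, a count of 0 is not a result about these genes. Slamf1, at -1.57 in normal and -0.85 in AML spleen, was under the floor and not counted. The subset ratio differed between spleens by less than 0.05 on the log2 scale for Slamf7, Cd244a, Cd48, Cd84 and Sh2d1b1. It was lower in AML spleen by 0.17 for Ly9 and 0.30 for Sh2d1a, and higher by 0.19 for Slamf6, 0.72 for Slamf1 and 0.74 for Sh2d1b2. With 1 library a group these differences have no test.

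AML changed none of the 8 tested genes past the threshold. In limma 0 rose and 0 fell, where 0.353% of all genes were called in either direction, and 1 of 8 was below an unadjusted p of 0.05, where 12.5% of all genes were. That gene was Sh2d1b1 (mean log2 difference -0.19, SE 0.07, unadjusted p = 0.0255, adjusted p = 0.340), which was lower in AML spleen in both subsets. Slamf6 was lower by 0.20 (SE 0.09) and Cd244a higher by 0.14 (SE 0.06), each in both subsets, with limma adjusted p-values of 0.445 and 0.421. Cd48, Cd84 and Slamf7 were higher in AML spleen in both subsets by 0.04 to 0.10. The adjusted p-values of the 8 genes ran from 0.340 to 0.808. By size, 0 of 8 were at least 2-fold apart in DNAM-1+ cells (0.657% of all genes) and 0 of 8 in DNAM-1- cells (0.59%). Beside such shares a count of 0 is not a result about these genes. The median of the 10 log2 ratios, AML against normal, was 0.06 with DNAM-1 and 0.05 without, beside 0.01 and -0.0018 over all genes. The subset and AML ratios share libraries and are not compared with each other.

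Of 23 genes for proteins that act below SLAM receptors, 22 were tested, and 3 rose and 4 fell in DNAM-1+ cells, where 7.35% of all genes tested rose and 8.38% fell. Over the tested genes the median ratio between subsets was -0.08 (log2) for normal and -0.01 for AML cells. Those that rose are known from T cell receptor signalling: the kinases Lck and Zap70 and the scaffold Lat. Lck was at 336 and 234 FPKM in normal and 336 and 245 in AML spleen (mean log2 difference 0.48, SE 0.06, limma adjusted p = 0.00323). Zap70 was at 95.4 and 76.7, then 96.6 and 74.6, and Lat at 56.7 and 42.8, then 63.9 and 50.4. These genes rose beside 5 of the 6 T cell markers tested, of which Cd3e and Trat1 passed the floor only through DNAM-1+ cells. Cd8b1 was lower and did not pass, and Cd4 and Cd8a were below the floor. The part of T cells in the rises of Lck, Zap70 and Lat was not tested.

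The genes that fell were Ptpn6, Syk, Vav2 and Sh3bp2. Ptpn6, the phosphatase SHP-1 that SLAM receptors can recruit, was at 111 FPKM with DNAM-1 and 192 without in normal spleen, then 120.3 and 190 in AML spleen (mean log2 difference -0.72, SE 0.06, limma adjusted p = 0.000875). Sh3bp2, an adaptor that binds 2B4, was at 29.1 and 44.7, then 29.0 and 36.8. Syk was at 93.5 and 137, then 89.3 and 131, and Vav2, an exchange factor, at 5.87 and 9.44, then 5.61 and 8.08. B cells are known to express Ptpn6 and Syk, their markers were lower in DNAM-1+ cells, and their part in these falls was not tested. Fyn, the kinase that SAP brings, was at 241 and 218, then 240.0 and 219.7 FPKM, and did not pass (mean log2 difference 0.14, SE 0.06, adjusted p = 0.179). Csk, an inhibitor of such kinases, was at 172 and 196, then 181 and 194.5 (-0.15, SE 0.06, adjusted p = 0.168). For AML, limma called 0 of the 22 (0.353% of all genes), and 2 were below an unadjusted p of 0.05, as were 12.5% of all genes.

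**Figure D4:**
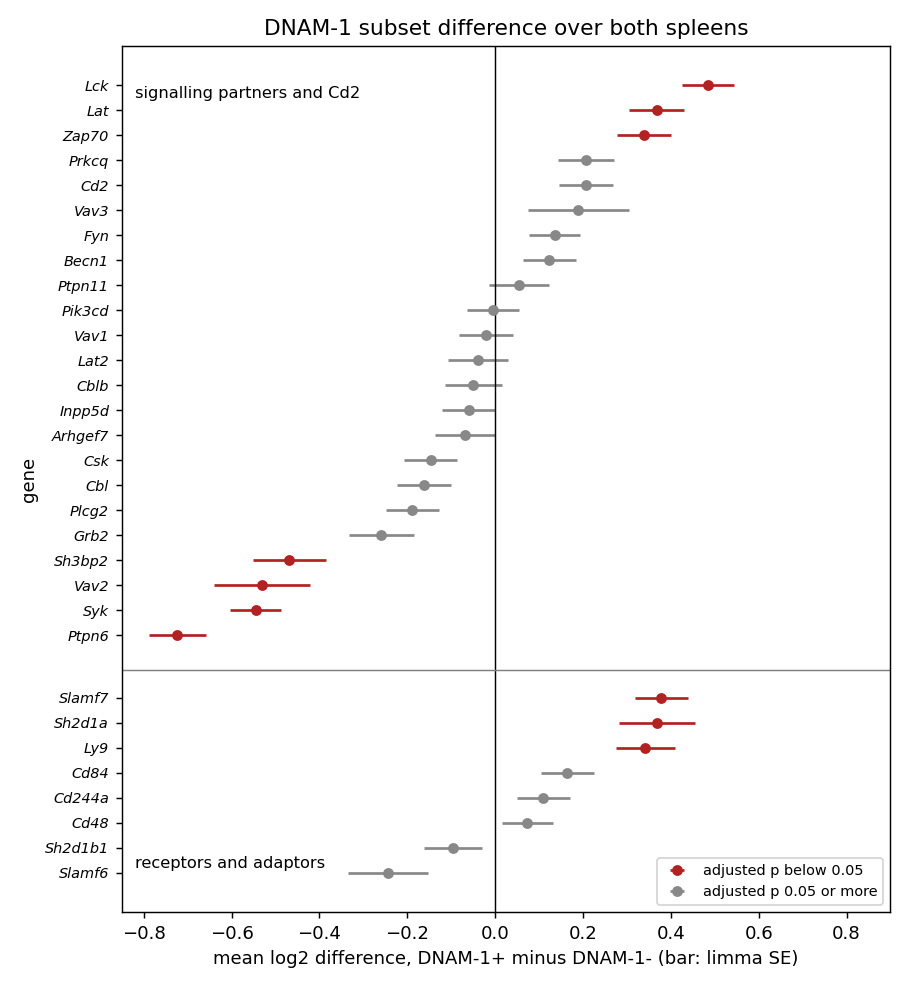
Mean log2 difference between DNAM-1+ and DNAM-1- cells over both spleens for the 8 tested receptors and adaptors (bottom) and for Cd2 and 22 signalling genes (top), with the limma standard error as bar and genes below an adjusted p of 0.05 in red. Slamf7 (0.38), Sh2d1a (0.37) and Ly9 (0.34) are the red points among the receptors and adaptors.

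Sh2d1a was the only tested member whose log2 levels spanned at least 0.5 over the 4 libraries (0.52). The protein-coding genes with the most similar profile, by distance of centred log2 levels over 4 libraries among 8516 genes, were Ece1 (distance 0.02), Armc7 (0.03) and Pola2 (0.03). Ece1 was at 12.6 and 8.59 FPKM in normal and 10.7 and 8.91 in AML spleen. With 4 libraries many genes can lie this close.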

How the data were processed

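Gene levels were deposited by the authors as FPKM, per the file headers, with 2 decimals and only genes above 0, and a gene not listed was taken as 0. Bowtie2 2.2.5 and RSEM appear in the submitters' processing notes without their roles, and a genome build or annotation is not given in the sources used here. Of 17723 gene numbers, 17668 matched a symbol in RefSeq (GRCm38.p6), which served for names, gene order and promoters. Transcript and translated lengths came from GENCODE M21, used in place of RefSeq proteins, and alignments from Biopython 1.88.

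Depth was estimated from the steps between FPKM values of short genes (microRNAs, 55 to 100 nt), after a length offset of 35 nt fitted to the data. Of these values, 90.3% to 93.9% lay within 0.1 of a whole number of up to 6 reads. Offset and depth were both chosen to make this share highest, so it is not a check of the depth. At that depth members at 5 FPKM or more rested on an estimated 402 to 3126 fragments.

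Log2 ratios add 1 FPKM to both values, which understates low genes. Genes reaching 5 FPKM in at least 1 library entered limma 3.58.1, under R 4.3.3, with a trend of the variance on level, subset and spleen as additive terms, and 1 residual degree of freedom (two-sided, adjusted over 9074 genes). The fit was tested on simulated data. Its residual is the interaction. Fits with other pseudocounts, floors, scalings and no trend were alternatives. All 10 members are named, with every called signalling gene, the 3 highest signalling genes and the nearest profiles. From the signalling list 1 gene is not reported here and is left out of that list's counts. Members, gene lists and tests were chosen with earlier results of these data known.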

Additional observations from a re-analysis of the deposited data

Results flagged for a closer look

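Of the 10 genes, 4 had log2 ratios of opposite sign in the 2 subsets or the 2 spleens. With 1 library a group these differences were not tested. Between AML and normal spleen, the log2 ratio of Sh2d1a was -0.24 with DNAM-1 and 0.060 without. That of Ly9 was -0.017 with DNAM-1 and 0.15 without, and that of Slamf1 was 0.22 and -0.51. Between DNAM-1+ and DNAM-1- cells, Sh2d1b2 had a log2 ratio of -0.025 in normal and 0.71 in AML spleen. For each gene the ratio nearer to 0 lay within its 95% counting half-width, which was 0.20 for Sh2d1a, 0.07 for Ly9, 0.97 for Slamf1 and 0.99 for Sh2d1b2, so its sign was not determined at this depth. The half-widths are for FPKM ratios without the added 1, which shrinks the ratios of low genes. The farther Sh2d1b2 ratio, 0.71 with the added 1 and 2.44-fold without it, had a half-width of 0.80. Slamf1 and Sh2d1b2 were under 5 FPKM in every library.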

How the results depend on the processing

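Without the mean-variance trend 0 members rose in DNAM-1+ cells, and with no floor 0 rose, against 3 as reported. Neither change can move a gene's log2 difference. The second also raises the genes adjusted over from 9074 to 17723. Under the other pseudocounts, scalings and normalization the differences were 0.36 to 0.41 for Slamf7, 0.29 to 0.37 for Ly9 and 0.34 to 0.40 for Sh2d1a. The cause of the lost calls was not tested. With a floor of 1 FPKM, 1 member fell (Slamf1, which was tested but not called with no floor) and 1 was at least 2-fold apart between the subsets of normal spleen (also Slamf1). Slamf1 passes that floor only through the DNAM-1- libraries, so neither count is read as support. Pseudocounts of 0.1 and 5 FPKM, a floor of 20 FPKM, median scaling, quantile normalization and protein-coding genes alone left the counts of called and of 2-fold members within 1.5 times of those reported. For AML against normal spleen, 0 members were called in any alternative. No library could be left out of the fit, because 3 libraries leave no residual degree of freedom. No paired analysis was possible because the labels give no mouse or replicate number. The spleen term of the fit matches the subsets by normal or AML spleen only. Depth limits Slamf1 and Sh2d1b2, which rest on an estimated 14 to 87 fragments a library.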
